A study of Homo sapiens with 4 samples.

Results

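The genes described here encode the subunits of the human Mediator complex. They were chosen by name, as the 33 listed symbols of core Mediator and its kinase module, and all 33 had a row among the 28814 genes of the count table and passed the low-count filter that left 16862 genes for testing. The RNA came from 697 cells, a long-established human line of B-cell acute lymphoblastic leukaemia, in 2 groups of 2 libraries. The treated group received 1 µM MZ1 for 24 h and the control group the same volume of DMSO, the solvent. MZ1 is a bifunctional molecule that brings BET bromodomain proteins to the VHL ubiquitin ligase for degradation. Both groups are the same line without any stated genetic change, so the data describe 1 line, 1 dose and 1 time.

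Mediator carries signals from DNA-bound transcription factors and enhancers to RNA polymerase II at promoters. Its head and middle modules contact the polymerase, its tail meets most activators, MED14 runs through the complex as a scaffold, and a separate kinase module (CDK8 or CDK19, cyclin C, MED12 and MED13 or their paralogs) docks reversibly and keeps the polymerase away while it is bound. Structural studies place MED27 to MED30 at the join of head and tail, and they are counted here with the head.

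The promoters of 4 members are shown first: MED16 and MED12, which fell, and MED13L and MED29, which rose most. MED11 and MED24 fell further than MED16 and MED12 and are not among the 4 shown. The 4 shown were the 2 largest falls and 2 largest rises among members that met 2 conditions. At most 10% of their exonic length was shared with another gene, and at least 100 bases of RefSeq promoter lay outside annotated exons. Each run lies within the 250 bases before the RefSeq start (GRCh38.p14), 5′ to 3′ on the gene's strand, without bases in a GENCODE exon. Capitals mark matches on either strand to CACGTG (the E-box, bound by MYC and related factors), to CCAAT (the CCAAT box), to GGGCGG (the GC box) or to TATAAA (the TATA box).
MED16, chr19:893219-893437, minus strand: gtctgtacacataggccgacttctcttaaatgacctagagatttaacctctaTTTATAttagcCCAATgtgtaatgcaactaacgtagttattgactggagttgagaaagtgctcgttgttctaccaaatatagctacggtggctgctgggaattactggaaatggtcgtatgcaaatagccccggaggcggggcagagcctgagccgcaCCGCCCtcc
MED12, chrX:71118346-71118555, plus strand: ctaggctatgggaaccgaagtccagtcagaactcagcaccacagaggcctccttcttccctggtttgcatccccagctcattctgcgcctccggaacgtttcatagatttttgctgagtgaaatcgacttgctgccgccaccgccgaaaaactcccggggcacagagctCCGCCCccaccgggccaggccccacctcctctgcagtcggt
MED13L, chr12:116277720-116277943, minus strand: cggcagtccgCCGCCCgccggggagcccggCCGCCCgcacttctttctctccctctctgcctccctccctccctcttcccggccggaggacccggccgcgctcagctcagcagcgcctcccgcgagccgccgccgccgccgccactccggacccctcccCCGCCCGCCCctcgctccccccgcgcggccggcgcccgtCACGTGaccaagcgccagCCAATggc
MED29, chr19:39391196-39391302, plus strand: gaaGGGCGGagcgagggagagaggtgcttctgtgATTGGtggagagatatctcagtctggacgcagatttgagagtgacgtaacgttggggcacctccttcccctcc

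The MED13L run holds an E-box that begins 52 bases before the start and a CCAAT match that begins 34 bases before it. The MED16 run holds a TATAAA match 198 bases before the start, and the MED12 run has a single GC box match. RefSeq promoters were found for 25 of the 33 members, of which 11 were called higher with MZ1 and 12 lower (edgeR adjusted p below 0.05, as described further on). Over the full 250 bases, CACGTG was present for 2 of the 25 (8%), CDK8 and MED13L, both called higher, against 6.34% of all 35116 promoter windows. CCAAT was present for 10 of 25 (40%, against 32% of all), 6 called higher and 4 lower. The GC box was present for 16 of 25 (64%, against 42.6% of all), 9 called higher and 5 lower, and TATAAA for 2 of 25, MED7 and MED16, against 10.7% of all. A match of letters is a description of the window and not evidence of binding.

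The 4 libraries held 14246367 to 16488005 counted reads. Levels are CPM, a gene's reads relative to the library's total after TMM scaling, so every change is relative to the other genes of the same library. Whether the replicates were separate cultures is not stated, and the p-values then speak only for library-to-library spread, possibly technical. In bulk RNA, fewer cells expressing a gene and less RNA per cell cannot be told apart. The B-cell identity of the line was checked with 10 precursor markers, all of which were read in every library. Their summed level was 3899.8 and 3929 CPM with DMSO and 1059.8 and 1108 CPM with MZ1, and all 10 were called lower. Of 15 markers of T, myeloid, erythroid and NK cells, 9 had a row, and their sum was 24.0 and 24.1 CPM with DMSO and 35.4 and 31.0 CPM with MZ1. Of the 7 that were tested, 5 were higher and 2 lower, and MPO and NCAM1 were at 0 in both DMSO libraries. MPO, a myeloid granule gene, had 141 and 96 reads with MZ1, and CD14 went from 7 and 10 to 107 and 93 reads. The 2 that fell were CSF1R, a myeloid receptor gene, from 92 and 79 to 14 and 12 reads, and NKG7, a gene of NK and T cells, from 264 and 299 to 53 and 41 reads. The part of these shifts in the Mediator values was not tested.

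MZ1 moved Mediator genes in both directions. With edgeR's quasi-likelihood test and a Benjamini-Hochberg adjusted p below 0.05, 14 of the 33 were higher, 16 were lower and 3 (MED20, MED28 and MED31) were not called. The 30 called members make up 90.9%, beside 84.2% of all tested genes. Higher calls were 42.4% of members and 42.8% of all genes, and lower calls were 48.5% of members, 41.3% of all genes and 48.8% of protein-coding genes. Changes of at least 2-fold were fewer: 6 members were higher by that much (29% of all genes were) and 9 lower (26.2% of all genes). The groups did not overlap for 31 members, where 91.3% of all genes did not. The median log2 fold change (MZ1 over DMSO) was 0.08 for the members, 0.05 for all tested genes and −0.20 for protein-coding genes. The members' median was −0.04 without DMSO replicate 2 and −0.14 without MZ1 replicate 1. The shares called higher and lower lie near the background. Rises of at least 2-fold made up a smaller share of members (6 of 33) than of all genes (29%). All members are protein-coding, and of 12639 tested protein-coding genes 2807 rose and 3774 fell by that much. The members' share of such rises lies closer to that of protein-coding genes than to that of all genes. Their share of such falls lies closer to that of all genes.

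**Figure D1:**
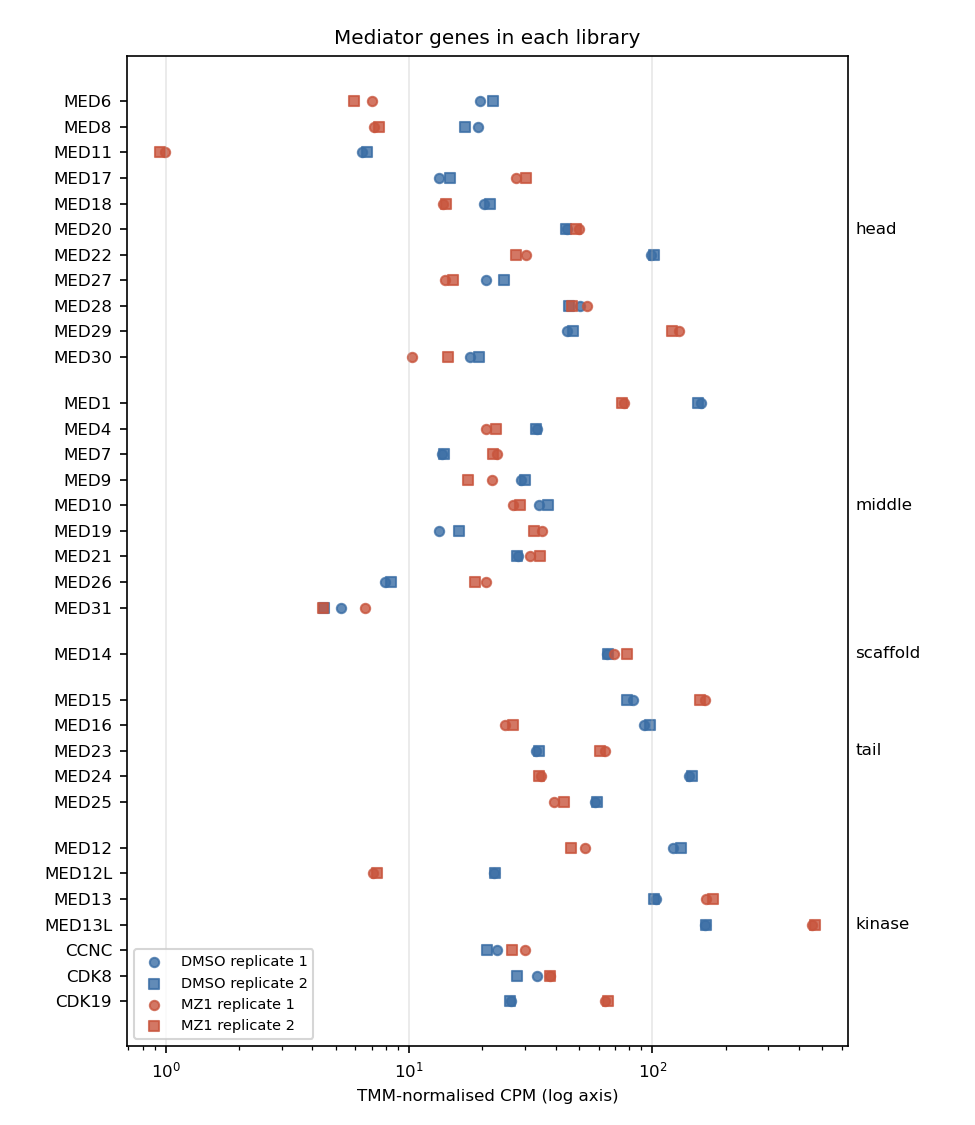
TMM-normalised CPM (log axis) of each Mediator gene in the 2 DMSO libraries (blue) and the 2 MZ1 libraries (red), ordered by module. MED13L reached 468 CPM with MZ1, the highest value plotted, and MED11 fell to 0.94 CPM, the lowest.

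The highest and lowest members per exonic length stood further apart with MZ1, and the spread over all 33 moved less. In TPM, which divides counts by the union of a gene's exons, the highest member stood 27.3-fold and 26.3-fold above the lowest in the DMSO libraries and 60.1-fold and 53.6-fold above it in the MZ1 libraries. MED16 had the highest TPM in both DMSO libraries (74.7 and 80.8) and MED29 in both MZ1 libraries (93.1 and 85.6). With the longest transcript as the length, the highest members were MED24 with DMSO and MED29 or MED15 with MZ1, and the span widened from 17.6-fold and 17.8-fold to 53.7-fold and 48.6-fold. The lowest member with MZ1 was MED12L by either length, and 30.1% of its exonic length is shared. The SD of log2 TPM over the members was 1.14 and 1.15 with DMSO and 1.27 and 1.31 with MZ1. For the core genes by the longest transcript it was 1.09 and 1.10 with DMSO and 1.09 and 1.16 with MZ1. The summed TPM of the 33 genes was 999 and 1042 with DMSO and 748 and 739 with MZ1. TPM is not TMM-scaled, so its zero of change differs from that of CPM. MED20 was at 44.7 and 44 CPM with DMSO and 49.7 and 48.7 CPM with MZ1. In TPM it was at 46.6 and 46.7 with DMSO and 41.9 and 40.6 with MZ1. The size of the fall in summed TPM therefore does not carry over to the CPM scale used elsewhere, on which no sum was computed.

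Of 11 head genes 7 were lower, 2 higher and 2 not called, with a median log2 fold change of −0.60, where 41.3% of all tested genes and 48.8% of protein-coding genes were lower. MED22, which pairs with MED11 in the head, was at 98.6 and 101 CPM in the DMSO libraries and at 30.1 and 27.5 CPM in the MZ1 libraries. Both treated libraries lay far below both controls, a 3.47-fold fall (log2 fold change −1.79 ± 0.07 SE; edgeR adjusted p = 2.83e-18). MED11 itself went from 6.41 and 6.73 CPM to 0.99 and 0.94 CPM, a 6.76-fold fall that rests on 14 and 13 reads with MZ1 (log2 fold change −2.76 ± 0.29; edgeR adjusted p = 2.71e-09). Of its exonic length 36.9% is shared, in part with the opposite-strand gene CXCL16, which also fell, from 97 and 89 reads to 30 and 15. The strand setting of the counting is not given in the sources used here. Which of the 2 genes gave the reads counted in their shared part is therefore uncertain.

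MED6, which links the head to the middle, was at 19.5 and 22.2 CPM with DMSO and at 7 and 5.93 CPM with MZ1, a 3.23-fold fall (edgeR adjusted p = 5.84e-11). MED8, an architectural subunit of the head that holds MED18 and MED20, was at 19.2 and 17.0 CPM and then at 7.14 and 7.52 CPM, a 2.47-fold fall. The partners that MED8 holds did not share its size of change. MED18 fell 1.5-fold (20.3 and 21.5 CPM against 13.7 and 14.2 CPM), while MED20 was at 44.7 and 44.0 CPM with DMSO and 49.7 and 48.7 CPM with MZ1. MED20's MZ1 libraries were above both controls, but its log2 fold change of 0.15 ± 0.07 missed the threshold (edgeR adjusted p = 0.0522); it was called higher with upper-quartile scaling (0.42), DESeq2 size factors in edgeR (0.18), the 1 CPM filter (0.18) and limma-voom (0.15).

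MED17 and MED29 rose against the rest of the head. MED17, the central subunit that organises the head, was at 13.3 and 14.7 CPM with DMSO and at 27.4 and 30.2 CPM with MZ1, a 2.05-fold rise (log2 fold change 1.04 ± 0.11; edgeR adjusted p = 3.94e-09). Of its exonic length 13.5% is shared, in part with the opposite-strand gene TAF1D, which fell (log2 fold change −0.66). MED29, of the group at the join with the tail, was at 44.7 and 47.2 CPM with DMSO and at 129 and 120.1 CPM with MZ1. Its treatments did not overlap, nor did those of 91.3% of all tested genes. MED29 rose 2.71-fold and shares no exon with another gene (edgeR adjusted p = 1.98e-17). Its neighbours in that group differed from it: MED27 fell 1.55-fold, MED30 fell 1.51-fold, and MED28 was at 50.2 and 45.2 CPM with DMSO and 53.7 and 46.8 CPM with MZ1, with overlapping groups (edgeR adjusted p = 0.358). The MED30 libraries with MZ1 were uneven, at 10.3 and 14.4 CPM.

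The middle module divided evenly, with 4 of 9 genes higher, 4 lower and MED31 not called. Of all tested genes 42.8% were higher and 41.3% lower. The module's median log2 fold change of 0.18 is that of MED31, and it was 0.03 without DMSO replicate 2 and −0.14 without MZ1 replicate 1. MED1, the subunit through which nuclear receptors bind, was at 159 and 154 CPM with DMSO and at 76.7 and 75.3 CPM with MZ1. The fall of 2.06-fold was larger than the spread of either group (log2 fold change −1.04 ± 0.05; edgeR adjusted p = 8.72e-16). MED4 fell 1.53-fold, MED9 1.49-fold and MED10 1.29-fold, and the MED10 call was lost with upper-quartile scaling (log2 fold change −0.10; edgeR adjusted p = 0.306).

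Among the middle genes that rose was MED26, which is known to join core Mediator when the kinase module is absent and to recruit elongation factors. It was at 7.94 and 8.44 CPM with DMSO and at 20.7 and 18.6 CPM with MZ1, a 2.39-fold rise (edgeR adjusted p = 4.28e-09). Of its exonic length 50.1% is shared with other annotated genes, and 1 of them on the opposite strand, AC008764.8, had 22 and 38 reads with DMSO and 123 and 110 with MZ1, so part of MED26's count is uncertain. MED19 was at 13.3 and 16 CPM and then at 35.1 and 32.5 CPM, a 2.30-fold rise in a gene that shares no exon (edgeR adjusted p = 1.74e-10). MED7 and MED21, which form the hinge of the middle module, both rose, MED7 1.64-fold and MED21 1.19-fold. The MED21 call (log2 fold change 0.25 ± 0.09; edgeR adjusted p = 0.0133) was lost with DESeq2, library totals, no count filter, or without DMSO replicate 1 (0.20), DMSO replicate 2 (0.20) or MZ1 replicate 2 (0.18). MED31 had only 61 to 93 reads per library, overlapping groups and 58.3% of its exonic length shared, all with TXNDC17.

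MED14, the scaffold, was close to its control level. It was at 65.2 and 65.8 CPM with DMSO and at 69.5 and 78.9 CPM with MZ1, a log2 fold change of 0.18 ± 0.06 (edgeR adjusted p = 0.0125). This call was lost with DESeq2 (log2 fold change 0.21; DESeq2 adjusted p = 0.0504), with library totals (log2 fold change 0.10), with no count filter (0.10) and without DMSO replicate 1 (0.12), DMSO replicate 2 (0.15) or MZ1 replicate 2 (0.08).

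**Figure D2:**
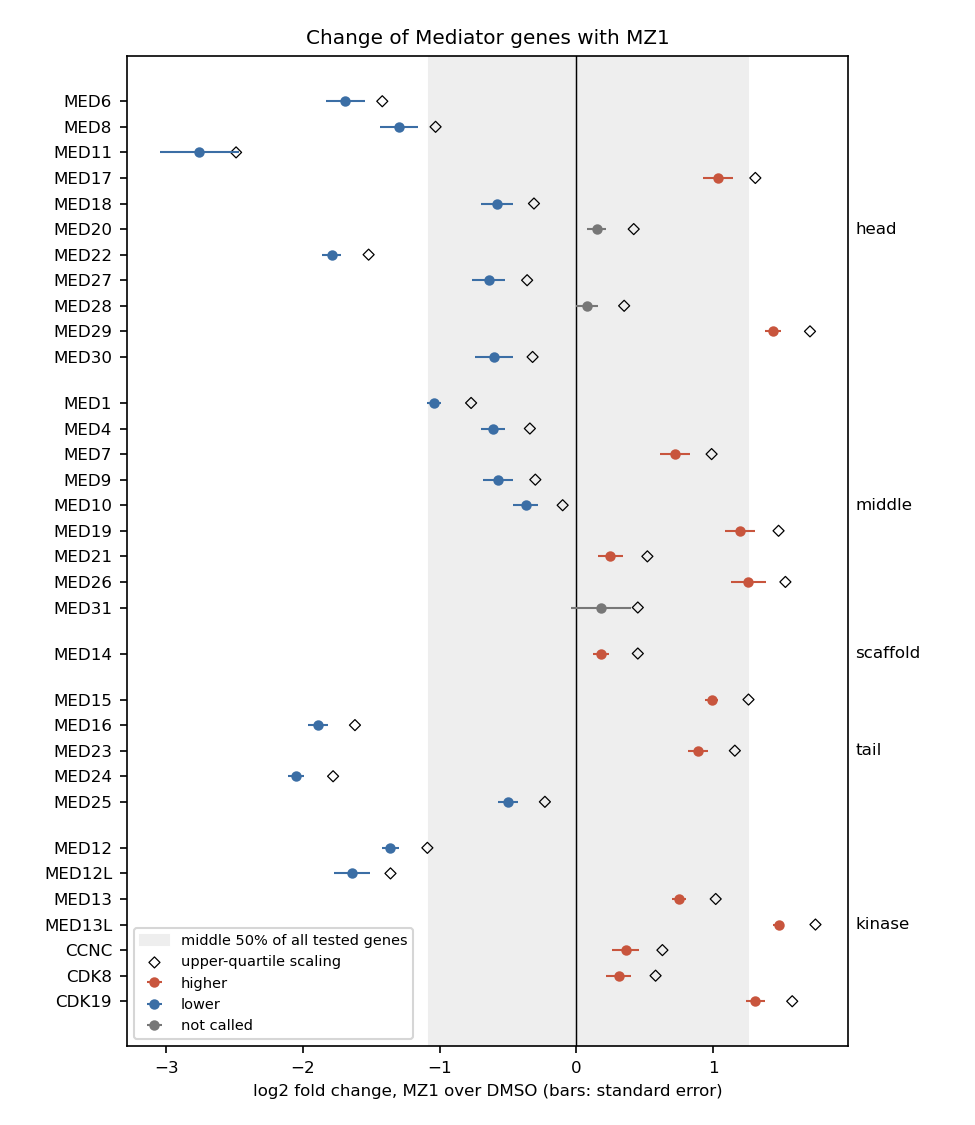
Log2 fold change (MZ1 over DMSO) of each Mediator gene with its standard error, by module, coloured by call (edgeR adjusted p below 0.05); diamonds give the value with upper-quartile scaling and the grey band spans the middle 50% of all tested genes (−1.08 to 1.26). MED24, MED16 and MED22 are among the genes left of the band and MED13L, MED29 and CDK19 right of it.

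In the tail 3 of 5 genes were lower and 2 higher, where 41.3% of all tested genes were lower and 42.8% higher. MED24 was at 141 and 145 CPM with DMSO and at 34.9 and 34.0 CPM with MZ1, a 4.15-fold fall (log2 fold change −2.05 ± 0.06; edgeR adjusted p = 9.9e-21). MED16 was at 92.4 and 98.1 CPM with DMSO and at 24.8 and 26.7 CPM with MZ1, a 3.70-fold fall (log2 fold change −1.89 ± 0.07; edgeR adjusted p = 2.52e-18). MED16, MED23 and MED24 are known to form a connected part of the tail, yet MED23, the target of ELK1 and of the adenoviral E1A protein, moved the other way. It was at 33.1 and 34.2 CPM with DMSO and at 64.0 and 60.8 CPM with MZ1, a 1.85-fold rise (edgeR adjusted p = 1.86e-11). MED15, through which SREBP and SMAD factors act, was at 82.8 and 78.6 CPM and then at 164 and 157 CPM, a 1.99-fold rise (edgeR adjusted p = 3.04e-15). MED25, a target of the viral activator VP16 and of ETS factors, fell 1.42-fold, from 58.1 and 58.9 CPM to 39.3 and 43.3 CPM. The groups did not overlap for any of the 5 tail genes, nor for 91.3% of all tested genes.

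In the kinase module 5 of 7 genes were higher and 2 lower, with a median log2 fold change of 0.36, where 42.8% of all tested genes were higher and 41.3% lower. Of the 5 higher calls, those of CDK8 and CCNC were lost without DMSO replicate 2. The genes that fell were MED12, which activates the kinase, and its paralog MED12L. MED12 was at 122 and 131 CPM with DMSO and at 52.6 and 46.1 CPM with MZ1, a 2.56-fold fall (log2 fold change −1.36 ± 0.06; edgeR adjusted p = 2.06e-16). MED12L was at 22.4 and 22.5 CPM and then at 7.07 and 7.37 CPM, a 3.11-fold fall (edgeR adjusted p = 2.04e-11). Of its exonic length 30.1% is shared, in part with the opposite-strand gene IGSF10. IGSF10 went from 134 and 131 reads to 3 and 2, beside 367 and 381 to 100 and 102 reads for MED12L.

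The MED13 genes, whose products tie the kinase module to the core, rose. MED13L was at 164 and 166 CPM with DMSO and at 452 and 468 CPM with MZ1, a 2.79-fold rise (log2 fold change 1.48 ± 0.04; edgeR adjusted p = 1.48e-20). MED13 was at 103 and 101 CPM and then at 166 and 178 CPM, a 1.68-fold rise (edgeR adjusted p = 6.19e-13). Both genes separated the treatments without overlap, as did 91.3% of all tested genes.

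The kinase paralogs differed in size of change. CDK19 was at 26.3 and 26.0 CPM with DMSO and at 64.0 and 65.8 CPM with MZ1, a 2.48-fold rise (log2 fold change 1.31 ± 0.07; edgeR adjusted p = 1.42e-14). CDK8 was at 33.5 and 27.8 CPM with DMSO and at 37.8 and 37.9 CPM with MZ1, a log2 fold change of 0.31 ± 0.09 (edgeR adjusted p = 0.00317). The uneven DMSO libraries weigh on the CDK8 value, which was 0.14 and no longer called without DMSO replicate 2. CCNC, the cyclin of both kinases, was at 22.9 and 20.9 CPM and then at 29.8 and 26.5 CPM (log2 fold change 0.36 ± 0.10; edgeR adjusted p = 0.00212), and its call was also lost without DMSO replicate 2 (0.26). Neither call held with no count filter (0.23 for CDK8, 0.28 for CCNC).

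**Figure D3:**
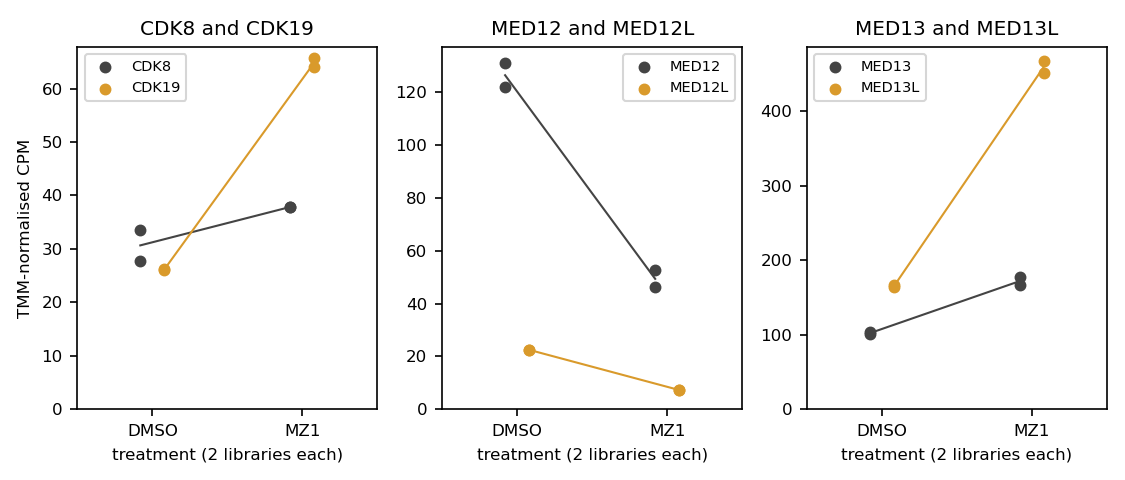
TMM-normalised CPM of the 3 paralog pairs of the kinase module in each library (points) with lines joining the group means. CDK19 and MED13L rose more steeply than CDK8 and MED13, and MED12 and MED12L fell together.

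Ratios within each library remove the scaling between libraries. Per exonic kilobase, the ratio of CDK8 to CDK19 was 2.70 and 2.26 in the DMSO libraries and 1.25 and 1.22 in the MZ1 libraries, a 2.01-fold decrease without overlap. The ratio of MED13L to MED13 was 0.538 and 0.557 with DMSO and 0.927 and 0.890 with MZ1, a 1.66-fold increase, also without overlap. For MED12L to MED12 it was 0.108 and 0.101 with DMSO and 0.0791 and 0.0941 with MZ1, a 1.21-fold decrease in which the groups did not overlap, although the MZ1 libraries lay farther apart than the closest MZ1 and DMSO libraries. An exact two-sided permutation test of 2 libraries against 2 cannot give a p below 0.33, and no test was run on these ratios. Which paralog has the higher level depends on the length used: by the longest transcript MED13L stood above MED13 in every library (mean ratio 1.16 with DMSO and 1.92 with MZ1), and by coding length CDK8 stood below CDK19 with MZ1 (0.632). The change of each ratio does not depend on length.

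Gene size and level gave little order to the members. Across the 33 genes, Spearman's rho of the log2 fold change with the genomic span was 0.29 and with the mean level 0.19. Across 12639 protein-coding genes the same values were −0.01 and −0.06. The points share the same 4 libraries and are no independent replicates. Of the 3 members with the longest span, MED13L (324 kb) rose while MED12L (351 kb) and MED27 (220 kb) fell.

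The machinery that Mediator works with was taken from 4 lists. As background, 42.8% of all tested genes were higher and 41.3% lower, and of protein-coding genes 38.5% and 48.8%. With upper-quartile scaling 49.2% of all tested genes were higher and 34.9% lower. Of 33 general transcription factor genes, which build the preinitiation complex with Mediator, 9 were higher and 16 lower (median −0.18), or 15 and 12 with upper-quartile scaling. TAF5 of TFIID fell 6.12-fold and TAF1 rose 1.64-fold. RNA polymerase II subunits were lower for 9 of 12 genes and higher for 2 (median −0.55), or 6 and 3 with upper-quartile scaling. The 2 that rose were POLR2A and POLR2B, the catalytic large subunits, POLR2A from 564 ± 3.28 to 1022 ± 18.4 CPM (SD, n = 2 per group), while POLR2H fell 6.69-fold. Cohesin, which holds DNA loops and is known to meet Mediator through its loader, had 8 of 10 genes lower and 1 higher (median −0.82), or 7 and 3 with upper-quartile scaling. The gene that rose was NIPBL, the loader, at 4.16-fold, and the ring subunit SMC1A fell 1.94-fold. Other transcriptional kinases and cyclins, 3 of which are also in the first list, had 7 of 13 higher and 5 lower (median 0.47), or 8 and 2 with upper-quartile scaling. CCNL1 rose 5.11-fold and CDK12 fell 1.42-fold. POLR2B was named after its value was seen.

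**Figure D4:**
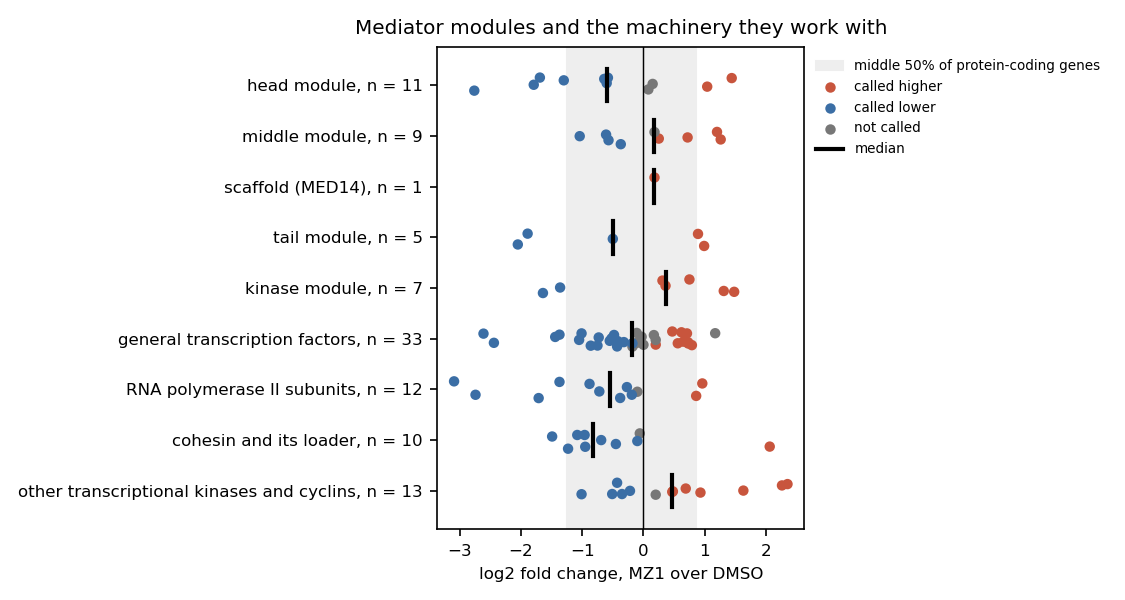
Log2 fold change (MZ1 over DMSO) of each gene of the Mediator modules and of 4 lists of partner machinery, coloured by call, with the median as a black bar and the middle 50% of protein-coding genes in grey (−1.24 to 0.85). The head and tail medians (−0.60 and −0.50) lie left of 0 and the middle and kinase medians (0.18 and 0.36) right of it; the middle median was −0.14 without MZ1 replicate 1.

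The scaling sets the zero of all these changes. With upper-quartile scaling every log2 fold change moved up by a median of 0.271, and 16 members were called higher (49.2% of all genes) and 15 lower (34.9% of all genes). The direction of each called member was the same under every scaling tried. Without the 8 members that share over 10% of their exonic length, 12 were higher and 12 lower of 25.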

How the data were processed

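The authors deposited raw read counts for each Ensembl gene, a unit taken from the file (whole numbers, unequal library totals). The submitters' processing notes name HISAT2 2.2.0 and hg38. For the counting step, program, annotation and strandedness are each not given in the sources used here. GENCODE release 29 (GRCh38) supplied positions, lengths and exon sharing for all 28814 IDs, and the name table gave 28597 of them a symbol.

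Counts were analysed with edgeR 4.0.16 in R 4.3.3 (filterByExpr, TMM, glmQLFit and glmQLFTest with treatment as the only term, Benjamini-Hochberg over 16862 genes). The script was tested on simulated counts in which most genes did not change. In these data 84.2% of tested genes were called, a setting that the simulation did not cover. Each standard error is the absolute unshrunk log2 coefficient over the square root of F. Replicates differed beyond sampling noise (chi-square over its degrees of freedom was 2.44 in DMSO, 2.17 in MZ1), and every library counts as 1 replicate. Alternatives were DESeq2 1.42.0, limma-voom (limma 3.58.1), other scalings and filters, a replicate block and leaving out each library. In each partner list, the gene of lowest adjusted p among those called higher, and likewise among those called lower, is named. Members and lists were chosen with earlier results of these data known. Some genes are not reported here.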

Additional observations from a re-analysis of the deposited data

How the results depend on the processing

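Each member was recomputed under 12 alternatives. Direction and call were the same in all of them for 25 members, and the other 8 were MED20, MED28, MED10, MED21, MED31, MED14, CCNC and CDK8. The 16 lower calls became 15 with upper-quartile scaling and were 16 in the other 11. Leaving out 1 library at a time gave 26 to 30 called members and 10 to 14 higher, with the fewest without DMSO replicate 2. With the replicate number as a block (replicate block) 30 members were called, 14 higher and 16 lower, and the call of every member was the same as without it. The labels do not say that the numbers pair cultures, and deviations of same-numbered libraries correlated at 0.014. MED28, not called, turned to −0.00025 with no count filter and ranged from −0.04 to 0.17 when a library was left out. MED31, also not called, ranged from −0.14 to 0.43.

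The median log2 fold change of all members was 0.35 with upper-quartile scaling and ranged from −0.14 to 0.11 when a library was left out. With upper-quartile scaling the module medians were −0.32 (head), 0.45 (middle), −0.23 (tail) and 0.63 (kinase). Counting MED27 to MED30 with the tail gave −1.30 for the head and −0.50 for the tail. The middle median, which rests on MED31, was 0.21 with DESeq2 size factors and with the 1 CPM filter, 0.10 with library totals and with no filter, 0.20 with DESeq2, 0.16 with limma-voom and with the replicate block, and −0.14 to 0.20 when a library was left out.

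With the longest transcript and then the coding length, the mean CDK8 to CDK19 ratio was 2.39 and 1.27 with DMSO and 1.19 and 0.632 with MZ1, MED12L to MED12 was 0.115 and 0.18 with DMSO and 0.0956 and 0.149 with MZ1, and MED13L to MED13 was 1.16 and 1.58 with DMSO and 1.92 and 2.62 with MZ1. Among the partner lists, upper-quartile scaling gave 15 higher general transcription factors, 3 higher cohesin genes and 2 lower transcriptional kinases and cyclins, and DESeq2 gave 3 of the last. The alternatives for paralog ratios by library, for partner lists and for shared exons were chosen after seeing the data. Cohesin genes called lower went from 8 to 7 with the block. MED11 with MZ1 (14 and 13 reads) and MED31 (61 to 93 reads per library) had low counts, which limit their precision.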
